A study of Mus musculus with 15 samples.

Results

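Secreted protease inhibitors of the Kazal and whey acidic protein families were followed across mouse skin with and without a dermatitis-inducing treatment. The 7 genes were chosen by name: the Kazal genes Spink5, Spink6 and Spink12, and the whey acidic genes Slpi, Wfdc5, Wfdc12 and Wfdc21. They are 7 of the 54532 genes in the deposited table, and all 7 passed the filter on low values (FPKM of at least 0.5 in at least 3 libraries). Spink5, Slpi, Wfdc5 and Wfdc21 reached that level in all 12 libraries, Wfdc12 in 10, Spink12 in 9 and Spink6 in 8. The series concerns the receptor PAR2, the channel TRPV3 and the cytokine IL-33 in keratinocytes. Poly-A RNA of skin was sequenced from 4 groups of 3 libraries each: Trpv3-knockout skin given MC903 for 7 days, wild type skin given MC903 for 7 days, Trpv3-knockout skin without treatment, and wild type skin without treatment. MC903, also called calcipotriol, resembles vitamin D and is painted on mice to bring on a dermatitis like the atopic form. No vehicle is named for the untreated skin. The study describes conditional knockouts without saying in the labels which cells lost the gene, and the labels give no age, sex or strain. Nothing states that the replicates are different mice, so p-values measure only the spread between libraries, which may be technical.

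Kazal and whey acidic inhibitors are small secreted proteins, or chains of small domains, that sit in the active site of serine proteases and hold it shut. In the upper epidermis they face the kallikreins, trypsin-like and chymotrypsin-like proteases that cut the corneodesmosomes holding dead cells together and so let them be shed. PAR2 is opened by serine proteases, among them KLK5 and KLK14, so the balance of inhibitor and protease in the epidermis bears on its signalling. In inflamed tissue whey acidic inhibitors also face elastase and cathepsin G released by neutrophils.

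The 12 libraries held 16869716 to 18485698 reads assigned to genes, so 1 read on a transcript of 1 kb was worth an FPKM (fragments scaled by gene length and sequencing depth) of 0.0496 to 0.0615. Trpv3 itself had an FPKM of 4.73 to 6.82 in knockout-labelled and 16.1 to 19.0 in wild type MC903 skin, and of 2.62 to 3.64 in knockout-labelled and 1.13 to 2.71 in wild type untreated skin. The untreated libraries labelled knockout thus held no less Trpv3 RNA than wild type ones (log2 fold change 0.61 ± 0.22 (SE), limma adjusted p = 0.10). RNA did not bear the genotype label out there, but the labels do not name the deleted exons or cells. RNA summed over the gene therefore cannot check the label, and "knockout-labelled" is used throughout. In MC903 skin Trpv3 was lower in knockout-labelled than in wild type libraries (log2 -1.45 ± 0.22, limma adjusted p = 0.00032). Its MC903 response was also smaller in knockout-labelled skin (-2.06 ± 0.32, limma adjusted p = 0.00063). Each direction between the genotypes below rests on the genotype label. Untreated wild type replicate 3 stood furthest from the others of its group, and values without it are given beside the results that it moved most. Log2 fold changes were taken after adding 0.5 to FPKM, which understates changes of low genes, and adjusted p-values of genes are Benjamini-Hochberg values from limma over the 17646 genes tested.

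The genes lie in 3 places of the mm10 genome, and all are protein-coding genes in GENCODE M21, with 32 exonic blocks in Spink5 and 3 to 6 in each of the others. Spink5 (ENSMUSG00000055561, 43963235 to 44022501), Spink6 (ENSMUSG00000055095, 44071393 to 44083610) and Spink12 (ENSMUSG00000061144, 44104407 to 44108543) follow each other on the plus strand of chromosome 18. Wfdc21 (ENSMUSG00000051748, 83746940 to 83752642) lies alone of the 7 on the plus strand of chromosome 11.

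Wfdc5 (ENSMUSG00000040154, 164176327 to 164182742), Wfdc12 (ENSMUSG00000042845, 164189231 to 164190608) and Slpi (ENSMUSG00000017002, 164354070 to 164389095) lie on the minus strand of chromosome 2. The antisense gene A730032A03Rik shares 81 exonic bases with Wfdc5 and 125 with Wfdc12. Whether counting used strand is not given in the sources used here, so reads there cannot be told apart, and the antisense gene's own level did not exceed an FPKM of 0.694 in any library.

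Slpi and Wfdc12 had the largest rises of the 7 under MC903 in wild type skin, and the DNA just upstream of both is shown because they rose together from one gene cluster. The sequences come from a table of RefSeq promoters (GRCm38.p6) in which these 2 of the 7 were matched, and are written 5′ to 3′ along the minus strand of chromosome 2. For Slpi the window is chr2:164356508-164356757, the 250 bases before the RefSeq start, although the gene model in the files reaches further upstream. For Wfdc12 it is chr2:164190609-164190808, 200 bases that leave out the 50 bases nearest the RefSeq start, which are exonic in the files' annotation. Capitals mark matches to motif letters, all found on the opposite strand.
Slpi: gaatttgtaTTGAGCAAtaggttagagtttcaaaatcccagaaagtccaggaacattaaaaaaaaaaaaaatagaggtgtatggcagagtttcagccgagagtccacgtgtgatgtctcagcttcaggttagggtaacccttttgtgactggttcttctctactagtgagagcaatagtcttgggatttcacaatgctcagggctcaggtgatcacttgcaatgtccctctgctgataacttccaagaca
Wfdc12: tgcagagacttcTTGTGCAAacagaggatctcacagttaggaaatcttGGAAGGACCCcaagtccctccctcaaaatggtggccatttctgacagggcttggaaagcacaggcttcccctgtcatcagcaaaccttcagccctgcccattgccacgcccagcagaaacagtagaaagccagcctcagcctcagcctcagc
Both windows held 1 match to the C/EBP letters TTGCNNAA, starting at position -241 relative to the RefSeq start in Slpi and -238 in Wfdc12; 9.56% of 32851 mouse promoter windows of 250 bases hold one. Wfdc12 also held 1 match to the NF-kB letters GGGNNNTTCC, at position -202, against 4.65% of all windows. The letters of AP-1 (TGANTCA, in 6.75% of windows), STAT (TTCNNNGAA, in 7.02%) and a vitamin D receptor repeat (GGTCANNNNGTTCA, in 0.0426%) were in neither window, on either strand. A match describes the letters and not the binding of a factor.

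Slpi encodes the secretory leukocyte protease inhibitor, a pair of whey acidic domains that blocks neutrophil elastase and cathepsin G. Its FPKM was 284, 268 and 198 in knockout-labelled MC903 skin, against 9.11, 6.80 and 6.32 in untreated knockout-labelled skin. In wild type skin it was 341, 359 and 336 after MC903, against 1.58, 1.68 and 3.06 untreated. No treated library came near an untreated one in either genotype, and untreated knockout-labelled skin lay above untreated wild type skin without overlap. The rise was 33.7-fold by group means in knockout-labelled skin (log2 4.98 ± 0.21 (SE), limma adjusted p = 5.7e-08) and 164-fold in wild type skin (7.10 ± 0.21, limma adjusted p = 1.8e-09).

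Wfdc12 encodes a single whey acidic domain protein with antibacterial activity reported in the mouse. It had an FPKM of 23.7, 33.2 and 21.7 in knockout-labelled MC903 skin, against 2.31, 1.62 and 1.73 in untreated knockout-labelled skin. The wild type libraries read 124, 73.8 and 120.1 after MC903, against 0.0648, 0.448 and 0.945 untreated. Treated and untreated libraries were far apart in both genotypes, and every treated wild type library lay above every treated knockout-labelled one. Group means rose 13.9-fold in knockout-labelled skin (log2 3.47 ± 0.31, limma adjusted p = 9.9e-06) and 218-fold in wild type skin, from a level of few reads (6.82 ± 0.31, limma adjusted p = 3.0e-08). The wild type value ran from 6.18 with a pseudocount of 1 to 8.13 with limma voom on recovered reads. Without untreated wild type replicate 3 it was 7.15, and the group means differed 413-fold.

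Spink5 encodes LEKTI, a long chain of Kazal-type domains made by granular keratinocytes that restrains KLK5, KLK7 and KLK14. Loss of its human counterpart causes Netherton syndrome, with a peeling and inflamed epidermis. Its FPKM was 182, 229 and 150.5 in knockout-labelled MC903 skin, against 73.7, 76.6 and 70.1 in untreated knockout-labelled skin. In wild type skin it was 248, 259 and 312 after MC903, against 57.6, 37.2 and 25.1 untreated. The treated groups were both above both untreated groups, and untreated wild type skin was the lowest. The rise was 2.55-fold by group means in knockout-labelled skin (log2 1.32 ± 0.25, limma adjusted p = 0.0012) and 6.83-fold in wild type skin (2.83 ± 0.25, limma adjusted p = 2.5e-06).

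Wfdc5, a further whey acidic gene of the chromosome 2 cluster, had an FPKM of 16.1, 15.1 and 10.3 in knockout-labelled MC903 skin, against 5.97, 5.44 and 5.50 in untreated knockout-labelled skin. Wild type skin had 35.4, 30.6 and 31.2 after MC903, against 4.91, 4.23 and 1.87 untreated. Treated wild type libraries were above all others, and no groups overlapped. The rise was 2.45-fold by group means in knockout-labelled skin (log2 1.20 ± 0.26, limma adjusted p = 0.0032) and 8.83-fold in wild type skin (3.06 ± 0.26, limma adjusted p = 2.1e-06).

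Spink12, a short Kazal gene, had an FPKM of 13.5, 12.8 and 11.4 in knockout-labelled MC903 skin, against 0.457, 0.573 and 0.267 in untreated knockout-labelled skin. In wild type skin it had 23.0, 13.5 and 10.2 after MC903, against 0.748, 0.935 and 0.312 untreated. The genotypes overlapped in both conditions, while treatment separated all libraries. The log2 rise was 3.82 ± 0.28 in knockout-labelled skin (limma adjusted p = 2.2e-06) and 3.75 ± 0.28 in wild type skin (limma adjusted p = 6.8e-07). Both were larger with a pseudocount of 0.1 (4.61 in knockout-labelled and 4.38 in wild type skin) and with limma voom on recovered reads (4.82 and 4.49 in those groups).

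Wfdc21 ran the other way. Its FPKM was 57.1, 50.7 and 56.9 in knockout-labelled MC903 skin, against 159, 165 and 159.9 in untreated knockout-labelled skin. Wild type libraries had 40.5, 32.9 and 32.9 after MC903, against 178, 169 and 139 untreated. It was the most abundant of the 7 in untreated skin of both genotypes and fell in both, by 1.55 ± 0.11 on the log2 scale in knockout-labelled skin (limma adjusted p = 2.2e-06) and by 2.18 ± 0.11 in wild type skin (limma adjusted p = 6.6e-08).

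Spink6, whose human counterpart inhibits kallikreins in skin, was close to the limit of detection, with 0 to 17 reads a library. Its FPKM was 0.939, 1.04 and 0.184 in knockout-labelled and 0.306, 0.524 and 0.913 in wild type MC903 skin, and 0.523, 1.52 and 0 in knockout-labelled and 0.856, 0.760 and 0.445 in wild type untreated skin. All 4 groups overlapped and no comparison passed the test. At that depth its log2 difference of MC903 response between genotypes was known only to 0.34 ± 0.66.

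**Figure D1:**
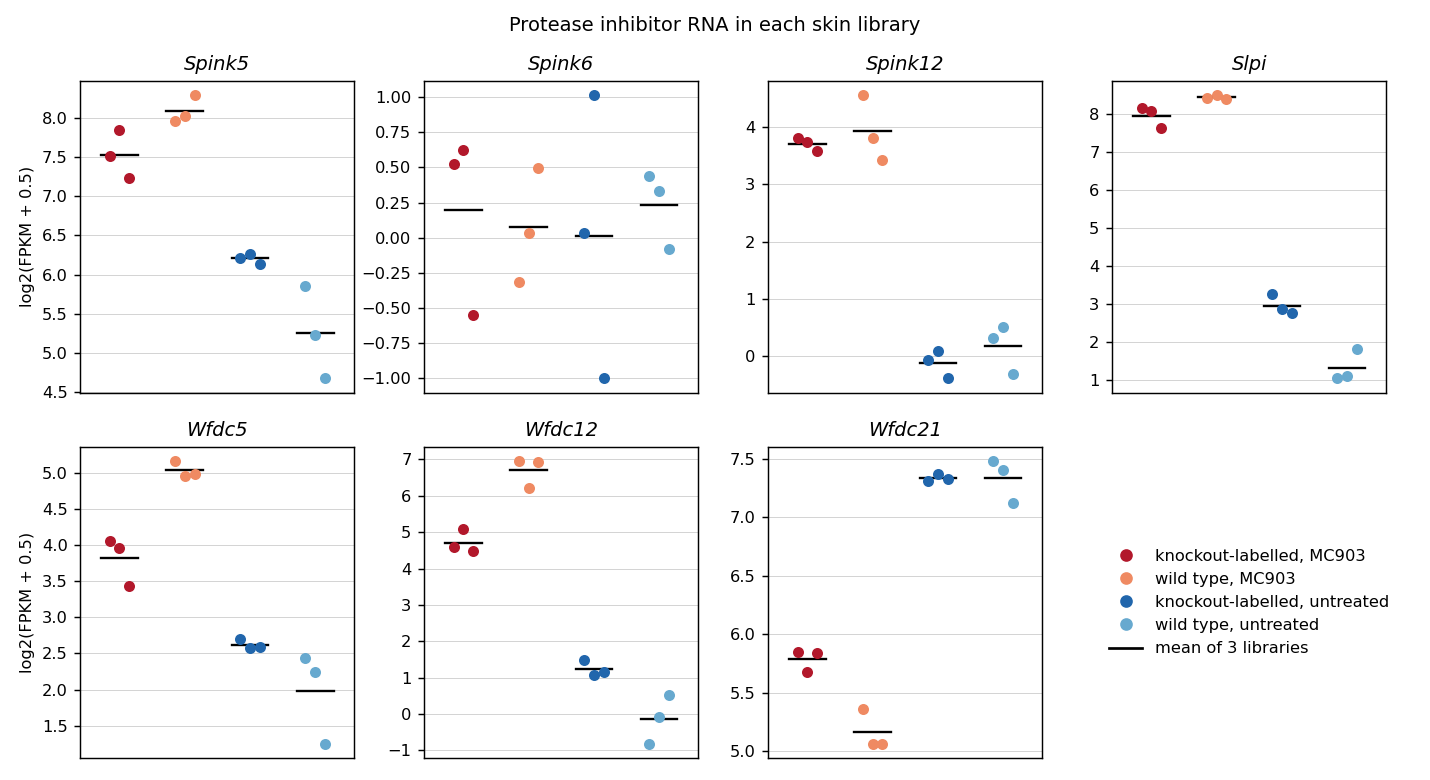
Level of each of the 7 inhibitor genes in each library as log2(FPKM + 0.5), with its own axis per gene, with groups from left to right knockout-labelled MC903, wild type MC903, knockout-labelled untreated and wild type untreated skin. Points are libraries and bars are group means. Slpi and Wfdc12 span the widest range, Wfdc21 is lower in both MC903 groups, and the 4 groups of Spink6 overlap.

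MC903 thus changed 6 of the 7 inhibitors in each genotype, 5 higher and 1 lower. In knockout-labelled skin 47.9% of all genes tested passed, 25.0% higher and 23.0% lower, and the median log2 fold change was 1.32 over the 7 genes against -0.0014 over all genes. In wild type skin 63.0% passed, 32.6% higher and 30.3% lower, with medians of 3.06 over the 7 and 0.023 over all genes. With so many genes passing, the count alone does not set the inhibitors apart from the rest. A library of skin mixes cell types, so fewer cells of a type and less RNA per cell cannot be told apart.

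The size of the MC903 response differed between genotypes for 5 of the 7 inhibitors, where 39.7% of all genes passed (20.0% with a higher and 19.7% with a lower log2 response in knockout-labelled skin). The difference, knockout-labelled minus wild type, was -3.35 ± 0.44 for Wfdc12 (limma adjusted p = 0.00029) and -2.11 ± 0.29 for Slpi (limma adjusted p = 0.00038). The Wfdc12 difference reached -4.39 with limma voom on recovered reads (limma adjusted p = 0.0025). The difference was -1.86 ± 0.37 for Wfdc5 (limma adjusted p = 0.0027) and -1.51 ± 0.35 for Spink5 (limma adjusted p = 0.0063), which was -0.95 with library weights (limma adjusted p = 0.012). All 4 rose less in knockout-labelled skin. Wfdc21 fell less there, with a difference of 0.63 ± 0.16 (limma adjusted p = 0.0095). Spink12, with 0.07 ± 0.39 (limma adjusted p = 0.90), did not pass, and neither did Spink6.

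Levels differed between genotypes before and after treatment. In untreated skin 3 of the 7 were higher in knockout-labelled than in wild type libraries, where 11.7% of all genes passed and 7.15% were higher and 4.55% lower; medians were 0.64 over the 7 and 0.0097 over all genes. Slpi averaged 7.41 ± 1.49 in knockout-labelled and 2.10 ± 0.827 in wild type untreated skin (SD, n = 3 each; log2 1.63 ± 0.21 (SE), limma adjusted p = 0.0017), a call that held in all alternatives run. Wfdc12 averaged 1.89 ± 0.370 in knockout-labelled and 0.486 ± 0.441 in wild type untreated skin (log2 1.37 ± 0.31, limma adjusted p = 0.019). Spink5 averaged 73.5 ± 3.22 in knockout-labelled and 40.0 ± 16.4 in wild type untreated skin (log2 0.95 ± 0.25, limma adjusted p = 0.033). The calls of Spink5 and Wfdc12 were lost when the 2 untreated groups were fitted alone (limma adjusted p = 0.11 and 0.083) and on leaving out wild type untreated replicate 2 (0.083 and 0.051) or knockout-labelled untreated replicate 1 (0.092 and 0.075) or replicate 2 (0.11 and 0.055). The call of Spink5 was also lost without knockout-labelled untreated replicate 3 (0.075) and with no filter on low values (0.070), and that of Wfdc12 with limma voom on recovered reads (log2 2.42, limma adjusted p = 0.097). Without wild type untreated replicate 3 the log2 differences were 1.88 for Slpi, 1.70 for Wfdc12 and 0.66 for Spink5, and all 3 passed. With library weights Spink5 was at 0.46 (limma adjusted p = 0.048). Wfdc5 did not pass (0.64 ± 0.26, limma adjusted p = 0.14), although its groups did not overlap, and was 0.28 without wild type untreated replicate 3 (limma adjusted p = 0.26), while Wfdc21 differed by less than its error (log2 -0.00052 ± 0.11).

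After MC903 Wfdc12 and Wfdc5 were lower and Wfdc21 higher in knockout-labelled than in wild type skin, so 3 of 7 passed where 52.1% of all genes did (25.9% higher, 26.1% lower); medians were -0.48 over the 7 and -0.028 over all genes. Wfdc12 averaged 26.2 ± 6.15 in knockout-labelled and 106 ± 27.8 in wild type MC903 skin (SD, n = 3 each), a log2 change of -1.98 ± 0.31 (SE, limma adjusted p = 0.00037). Wfdc5 averaged 13.8 ± 3.14 in knockout-labelled and 32.4 ± 2.61 in wild type MC903 skin (log2 -1.22 ± 0.26, limma adjusted p = 0.0025). Wfdc21 averaged 54.9 ± 3.63 in knockout-labelled and 35.4 ± 4.39 in wild type MC903 skin (log2 0.63 ± 0.11, limma adjusted p = 0.00081). Slpi (log2 -0.48 ± 0.21, limma adjusted p = 0.072) and Spink5 (-0.56 ± 0.25, limma adjusted p = 0.081) had groups that did not overlap but missed the threshold. Both passed without wild type untreated replicate 3 (limma adjusted p = 0.018 and 0.023) and with the 2 treated groups fitted alone (0.033 and 0.035).

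**Figure D2:**
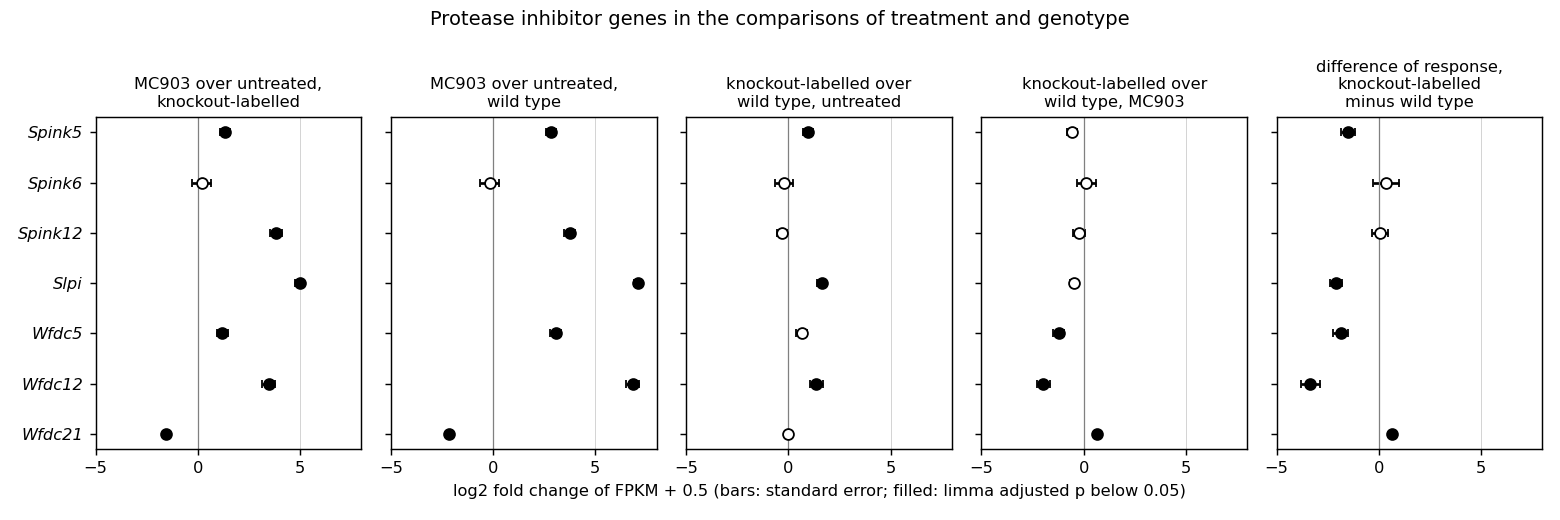
Log2 fold changes of the 7 genes in the 4 pairwise comparisons and the difference of MC903 response, knockout-labelled minus wild type, as points with standard errors, on the log2(FPKM + 0.5) scale. Filled points have a limma adjusted p below 0.05. The MC903 changes of Slpi, Wfdc12, Spink5 and Wfdc5 are larger in wild type skin, while those of Spink12 nearly coincide.

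The make-up of the family's RNA turned over with treatment. Summed over the 7 genes, which are scaled per length, FPKM was 545 ± 84.8 in knockout-labelled and 808 ± 37.4 in wild type MC903 skin, and 250.7 ± 6.75 in knockout-labelled and 209.6 ± 36.9 in wild type untreated skin (SD, n = 3 each). Wfdc21 made up 10.3 ± 2.20% of the sum in knockout-labelled MC903 skin and 4.39 ± 0.551% in wild type MC903 skin. In untreated skin it made up 64.3 ± 1.18% in knockout-labelled and 77.8 ± 4.28% in wild type libraries. The share of Slpi was 45.7 ± 2.96% in knockout-labelled and 42.9 ± 3.51% in wild type MC903 skin, and 2.96 ± 0.587% in knockout-labelled and 1.07 ± 0.625% in wild type untreated skin. The share of Spink5 was 34.2 ± 3.08% in knockout-labelled and 33.7 ± 3.26% in wild type MC903 skin, and 29.3 ± 0.504% in knockout-labelled and 18.6 ± 4.56% in wild type untreated skin. A family led by Wfdc21 in untreated skin was thus led by Slpi and Spink5 after MC903. In wild type MC903 skin the order by FPKM was Slpi, Spink5, Wfdc12, Wfdc21, Wfdc5, Spink12 and Spink6, and only Wfdc21 and Wfdc5 had neighbouring libraries that overlapped. In knockout-labelled MC903 skin Slpi and Spink5 overlapped, Wfdc21 came next, ahead of Wfdc12, and Wfdc5 and Spink12 overlapped.

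**Figure D3:**
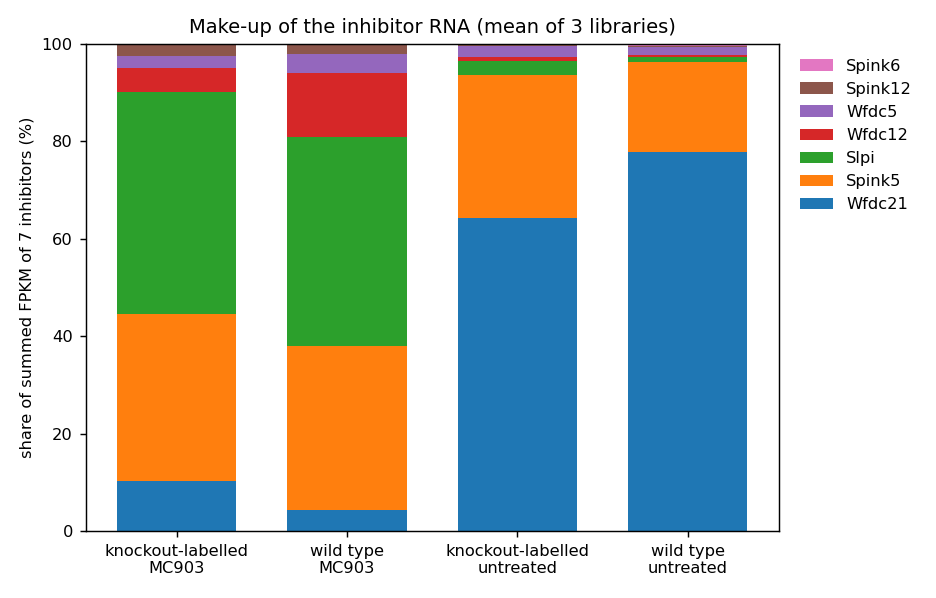
Mean share, in percent, of each of the 7 genes in their summed FPKM for the 4 groups, MC903 groups at the left and untreated groups at the right, as stacked bars from 0. Wfdc21 fills most of both untreated bars, and Slpi and Spink5 most of both MC903 bars.

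Spink5 was then set against the kallikreins it restrains. KLK5 is a trypsin-like protease that starts the cascade, and its gene Klk5 had an FPKM of 23.1, 23.4 and 16.8 in knockout-labelled MC903 skin, against 40.6, 41.2 and 36.2 in untreated knockout-labelled skin. Klk5 in wild type skin was 58.0, 53.9 and 50.4 after MC903, against 25.1, 17.4 and 10.8 untreated. It fell with MC903 in knockout-labelled skin (log2 -0.90 ± 0.24, limma adjusted p = 0.0093) and rose in wild type skin (1.66 ± 0.24, limma adjusted p = 0.00010), and the difference of -2.55 ± 0.34 passed the test (limma adjusted p = 0.00029). Klk7, encoding the chymotrypsin-like kallikrein of the cornified layer, rose in both, with a log2 change of 2.10 in knockout-labelled (limma adjusted p = 7.0e-05) and 3.82 in wild type skin (limma adjusted p = 3.3e-07). Klk14 had an FPKM of at most 1.46 in any library. Its log2 rise of 0.63 in knockout-labelled and 1.60 in wild type skin passed (limma adjusted p = 0.024 and 4.2e-05). The knockout-labelled call was lost without MC903 replicate 1 (limma adjusted p = 0.10) or untreated replicate 1 (0.052) or 3 (0.083), and both sizes were larger with limma voom on recovered reads (2.48 in knockout-labelled and 4.50 in wild type skin).

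The log2 ratio of Spink5 to Klk5 within a library was 2.95, 3.26 and 3.13 in knockout-labelled MC903 skin, against 0.852, 0.885 and 0.943 in untreated knockout-labelled skin. In wild type skin it was 2.08, 2.25 and 2.62 after MC903, against 1.18, 1.08 and 1.18 untreated. Inhibitor RNA therefore gained on Klk5 RNA in both genotypes, by 2.22 in knockout-labelled and 1.17 in wild type skin on the log2 scale (mean 1.70, exact two-sided permutation p = 0.005, adjusted over 3 ratios p = 0.005, the smallest the 400 assignments allow). Against Klk7 it lost ground: the log2 ratio was -1.82, -1.76 and -1.83 in knockout-labelled MC903 skin, against -1.02, -1.11 and -0.952 untreated. The same ratio was -2.01, -1.82 and -2.10 in wild type MC903 skin, against -0.867, -1.13 and -0.958 untreated. The mean change was -0.88 (exact two-sided permutation p = 0.005, adjusted p = 0.005), made of -0.78 in knockout-labelled and -0.99 in wild type skin. Within 1 genotype an exact test of 3 against 3 libraries cannot go below 0.1, and all ratios gave that value. The ratio to Klk14 changed by 0.96 (exact permutation adjusted p = 0.005), but by -0.28 with a pseudocount of 0.1 (exact permutation adjusted p = 0.36), so it is not read further. These are ratios of RNA, not of protein or activity.

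**Figure D4:**
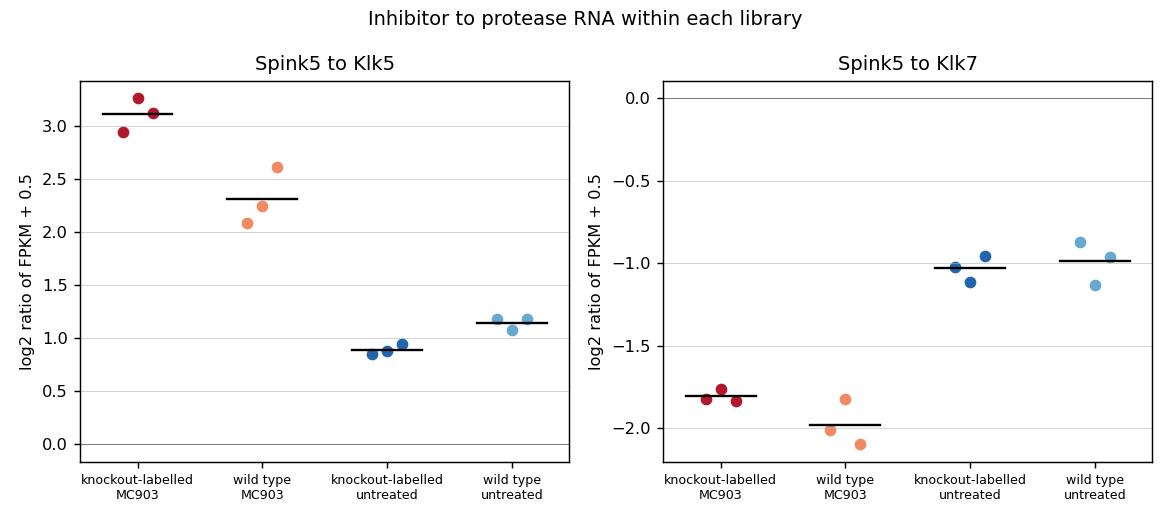
Log2 ratio of Spink5 to Klk5 and of Spink5 to Klk7 in each library, from log2(FPKM + 0.5), with groups from left to right knockout-labelled MC903, wild type MC903, knockout-labelled untreated and wild type untreated skin; bars are group means. The MC903 groups are higher than the untreated groups for Klk5 and lower for Klk7.

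F2rl1, which encodes PAR2, had an FPKM of 4.46, 4.36 and 4.22 in knockout-labelled and 9.75, 8.28 and 10.0 in wild type MC903 skin. Untreated skin had 7.77, 8.15 and 6.46 in knockout-labelled and 7.19, 6.75 and 3.49 in wild type libraries. After MC903 it was lower in knockout-labelled than in wild type skin (log2 -1.02, limma adjusted p = 0.0018), and its responses differed by -1.41 ± 0.29 (limma adjusted p = 0.0034). With MC903 it fell in knockout-labelled skin (-0.71, limma adjusted p = 0.015), a call lost without knockout-labelled untreated replicate 2 (limma adjusted p = 0.052), and rose in wild type skin (0.70, limma adjusted p = 0.012). The wild type rise was lost with TPM scaling (0.25, limma adjusted p = 0.35), with scaling by total reads (0.50, limma adjusted p = 0.069) and with only the groups compared (limma adjusted p = 0.054). It was 0.40 without wild type untreated replicate 3 (limma adjusted p = 0.0093). Neither change reached 2-fold. Of the proteases that Slpi blocks, Elane had an FPKM of at most 0.266 in any library and was not tested. Ctsg was at 2.67, 2.30 and 2.67 in knockout-labelled and 0.579, 0.357 and 0.0577 in wild type MC903 skin (log2 1.92, limma adjusted p = 0.00025). The response to MC903 did not pass in knockout-labelled skin (0.12, limma adjusted p = 0.75), and Ctsg fell in wild type skin (-1.64, limma adjusted p = 0.00044). Unlike Ctsg, 7 of 9 tested neutrophil markers rose with MC903 in wild type skin, where 32.6% of all genes passed as higher. Which cells the Ctsg RNA came from was not tested. Sizes for Ctsg grew with limma voom on recovered reads, to 3.27 between genotypes in MC903 skin and -2.92 for MC903 in wild type skin.

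Other proteases and substrates of the same layer were taken from lists, to be read beside the 47.9% of all genes that passed for MC903 in knockout-labelled and the 63.0% in wild type skin. Between genotypes the shares were 11.7% in untreated (7.15% higher) and 52.1% in MC903 skin (25.9% higher, 26.1% lower). For the difference of response 39.7% of all genes passed (20.0% higher, 19.7% lower). Of 18 tested serine proteases that these inhibitors could face, 10 rose and 1 fell with MC903 in knockout-labelled skin (median log2 0.68) and 13 rose and 3 fell in wild type skin (median 2.03). Klk6 averaged an FPKM of 333 in knockout-labelled MC903 skin and 11.7 in untreated knockout-labelled skin (log2 4.77, limma adjusted p = 5.7e-07), and 754 in wild type MC903 skin and 1.75 in untreated wild type skin (8.50, limma adjusted p = 4.3e-09). Klk13 averaged 172 in knockout-labelled MC903 skin and 2.90 untreated (5.65, limma adjusted p = 9.7e-08), and 286 in wild type MC903 skin and 0.669 untreated (8.02, limma adjusted p = 3.9e-09). Klk13 in wild type skin reached 8.997 with limma voom on recovered reads. In untreated skin 10 of the 18 were higher and none lower in knockout-labelled than in wild type libraries (median 1.02), Klk6 among them (2.54, limma adjusted p = 0.00095). The MC903 response was smaller in knockout-labelled skin for 12 of the 18 and larger for 3 (median -1.56), with -3.72 for Klk6 (limma adjusted p = 0.00011) and -2.59 for Klk8 (limma adjusted p = 6.3e-05). After MC903, St14, which encodes the membrane protease matriptase, averaged 5.29 in knockout-labelled and 12.8 in wild type skin (-1.21, limma adjusted p = 7.0e-05), and the mast cell protease gene Mcpt4 averaged 162 in knockout-labelled and 66.2 in wild type skin (1.28, limma adjusted p = 2.2e-05). After MC903 3 of the 18 were higher and 10 lower in knockout-labelled skin (median -0.73). Of 9 corneodesmosome and cornified-layer substrates 4 rose and 3 fell with MC903 in knockout-labelled skin (median 0.59) and 7 rose and 1 fell in wild type skin (median 1.82). Cdsn, encoding corneodesmosin, averaged 393 in knockout-labelled MC903 and 108 in untreated knockout-labelled skin (log2 1.83), and 623 in wild type MC903 and 38.8 in untreated wild type skin (4.04). Between genotypes 5 of the 9 were higher in untreated and 5 lower in MC903 knockout-labelled skin, and 6 had a smaller response there.

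Other genes of both families were counted in the same way, beside passing shares over all genes of 47.9% for MC903 in knockout-labelled and 63.0% in wild type skin, 11.7% between genotypes in untreated and 52.1% in MC903 skin. Of 10 other tested genes with Kazal domains, 4 fell and none rose with MC903 in knockout-labelled skin (median log2 -0.43), and 6 fell and 1 rose in wild type skin (median -0.47). Reck, a membrane inhibitor of metalloproteases with Kazal motifs, averaged an FPKM of 25.4 in knockout-labelled MC903 and 47.8 in untreated knockout-labelled skin (log2 -0.90), and 6.03 in wild type MC903 and 48.5 in untreated wild type skin (-2.88). Sparc, a matrix glycoprotein, fell by 1.58 in knockout-labelled and by 1.79 in wild type skin on the log2 scale. Between genotypes 3 of the 10 were higher and none lower in untreated knockout-labelled skin, and 4 were higher and 2 lower after MC903. Of 7 other tested whey acidic genes, 2 rose and 3 fell with MC903 in knockout-labelled skin (median -0.79), and 3 rose and 2 fell in wild type skin (median 0.12). Between genotypes 1 of these 7 was lower and none higher in untreated knockout-labelled skin, and 2 were higher and 2 lower after MC903.

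The genomic neighbours gave a direct comparison within each cluster. The span from Spink5 to Spink12, 145.3 kb of chromosome 18, holds 4 genes in the order Spink5, Spink14, Spink6 and Spink12, of which Spink14 is not among the 7. Spink14 had an FPKM of 0.0969, 0.583 and 0.475 in knockout-labelled MC903 skin and 5.88, 2.38 and 3.66 in wild type MC903 skin. It was at 0.0899, 0.184 and 0.0943 in untreated knockout-labelled skin and at 0 in all 3 untreated wild type libraries. The genotypes did not overlap after MC903 (log2 -2.31, limma adjusted p = 6.9e-05), unlike those of Spink12 in the same cluster. Its response differed between genotypes by -2.62 ± 0.40 (limma adjusted p = 0.00062), and the size ran from -1.97 with a pseudocount of 1 to -5.22 with limma voom on recovered reads.

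On chromosome 2 the span from Wfdc5 to Slpi, 212.8 kb, holds 13 genes, 11 of them protein coding, and 4 were tested. Wfdc5 and Wfdc12 lie at one end and Slpi at the other. Besides these, the microRNA gene Mir7678 was tested, which lies within Slpi on the same strand and shares 1 exonic base with it. The FPKM assigned to Mir7678 rose by 3.69 in knockout-labelled (limma adjusted p = 1.6e-05) and 6.35 in wild type skin on the log2 scale (limma adjusted p = 1.1e-07). Its reads were few: 9, 9 and 15 in knockout-labelled and 31, 55 and 63 in wild type MC903 libraries, and at most 1 in untreated ones. Whether these reads came from the microRNA gene or from Slpi transcripts was not tested. Between Wfdc12 and Slpi lie Wfdc15a, Wfdc15b and the seminal vesicle genes Svs2, Svs3a, Svs3b, Svs4, Svs5 and Svs6, none of which passed the filter: Wfdc15b did not exceed an FPKM of 0.290, Svs3b did not exceed 0.0479, and the others were at 0 in all 12 libraries. On chromosome 11, within 48.7 kb, Wfdc21 has Wfdc17 and Wfdc18 beside it. Wfdc17 was at 361, 416 and 473 in knockout-labelled MC903 skin, against 73.9, 87.2 and 85.0 untreated, and at 141, 126 and 180.0 in wild type MC903 skin, against 133, 149 and 126 untreated. It rose in knockout-labelled skin (log2 2.33, limma adjusted p = 7.6e-07) and did not pass in wild type skin (0.12, limma adjusted p = 0.49), a difference of 2.21 (limma adjusted p = 5.6e-05). Wfdc18 rose in both, by 2.10 in knockout-labelled (limma adjusted p = 0.00034) and 2.41 in wild type skin (limma adjusted p = 5.9e-05).

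**Figure D5:**
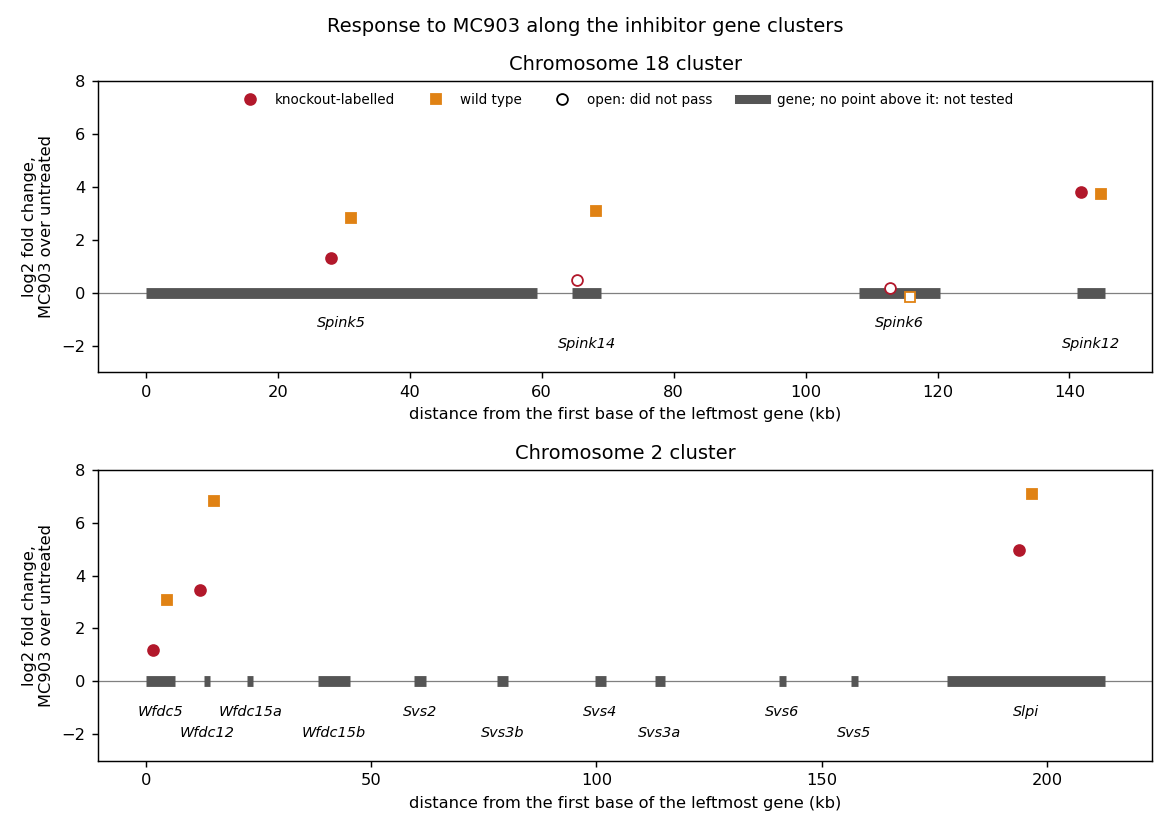
Log2 fold change with MC903 of the tested protein-coding genes along the chromosome 18 and chromosome 2 clusters, against distance in kilobases, with circles for knockout-labelled and squares for wild type skin. Open symbols did not pass the test. Spink6 stays near 0 between Spink5 and Spink12, and Wfdc5, Wfdc12 and Slpi are higher in both genotypes, with squares above circles.

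Markers of cell types moved with the same groups. Their counts are to be read beside passing shares over all genes of 47.9% for MC903 in knockout-labelled and 63.0% in wild type skin. Between genotypes the shares were 11.7% in untreated (7.15% higher) and 52.1% in MC903 skin (25.9% higher, 26.1% lower). For the difference of response 39.7% passed, 19.7% with a lower log2 response in knockout-labelled skin. The summed FPKM of 7 basal keratinocyte markers was 3489 to 4877 in knockout-labelled and 12362 to 17305 in wild type MC903 skin, and 2012 to 2302 in knockout-labelled and 1726 to 2019 in wild type untreated skin. Krt14 carried most of it, with a mean of 3427 in knockout-labelled and 11859 in wild type MC903 skin. With MC903 in knockout-labelled skin 3 of the 7 rose and 2 fell (Krt15 and Col17a1), and Krt5 did not pass, whereas in wild type skin 6 rose and 1, Krt15, fell. For 10 suprabasal and granular markers it was 3500 to 5284 in knockout-labelled and 7427 to 12111 in wild type MC903 skin, and 4767 to 5516 in knockout-labelled and 2238 to 3415 in wild type untreated skin. Of these 10, 9 had a smaller MC903 response in knockout-labelled skin, and 6 were higher in untreated knockout-labelled than in untreated wild type skin. Within each treatment the genotypes were in the same order for the granular sum as for the means of Wfdc5, Spink5, Slpi and Wfdc12. Not all of these genotype differences of single inhibitors passed the test. Between treatments the order was not the same in knockout-labelled skin. The sum averaged 4589 in MC903 and 5220 in untreated libraries there, where Spink5 and Wfdc5 rose. Krt10 averaged 1141 in MC903 and 2275 in untreated knockout-labelled skin and did not pass, and Lor averaged 212 and 842 in those groups. Counted by gene, 5 of the 10 markers rose there with MC903, as Spink5 and Wfdc5 did, and 2 fell (median log2 0.70). The 11 neutrophil markers summed to 2144 to 2774 in knockout-labelled and 1019 to 1252 in wild type MC903 skin, and to 30.2 to 190 in knockout-labelled and 11.6 to 32.0 in wild type untreated skin, with Ly6g at 0 in all untreated libraries and Ngp at 0 in untreated wild type ones. S100a8 and S100a9, which inflamed keratinocytes also make, carried most of this sum, with means of 1136 and 1240.3 in knockout-labelled and 503 and 552 in wild type MC903 skin, and neither passed between these groups. The neutrophil receptor genes Csf3r and Cxcr2 averaged 29.4 and 33.5 in knockout-labelled and 6.82 and 8.83 in wild type MC903 skin, and both passed (limma adjusted p = 3.3e-05 and 2.0e-05). Slpi, which neutrophils also make, averaged 249.9 in knockout-labelled and 346 in wild type MC903 skin, a difference that did not pass, while 6 of 9 tested neutrophil markers were higher and none lower in knockout-labelled MC903 skin. The 8 monocyte and macrophage markers summed to 937 to 1454 in knockout-labelled and 360 to 426 in wild type MC903 skin, and 597 to 655 in knockout-labelled and 477 to 633 in wild type untreated skin. Sebaceous markers, 6 in number, summed to 922 to 1267 in knockout-labelled and 407 to 549 in wild type MC903 skin, and 2314 to 2619 in knockout-labelled and 2695 to 3525 in wild type untreated skin. Scd1 carried most of this sum, with a mean of 915 in knockout-labelled and 316 in wild type MC903 skin. After MC903 2 of the 6 were higher and 1, Elovl3, lower in knockout-labelled than in wild type skin. The 8 hair markers summed to 5.02 to 36.2 in knockout-labelled and 7.13 to 37.1 in wild type MC903 skin, and 121 to 252 in knockout-labelled and 3.996 to 155 in wild type untreated skin. The part of these cell types in the inhibitor results was not tested.

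The genes with profiles most like each inhibitor were named by the mean absolute difference of centred log2 profiles over the 12 libraries, as a description. For Spink5 they were Rnf39 (0.133), the channel gene Aqp9 (0.138) and Ceacam19 (0.159). For Wfdc5 they were the cholesterol sulfotransferase gene Sult2b1 (0.134), the membrane protease gene Tmprss13 (0.160) and the transporter gene Slc6a20a (0.161), and Wfdc5 itself came 29th in the list of Spink5 at 0.249. For Slpi they were Lce3a (0.359), Lce3e (0.373) and Lce3c (0.376), late cornified envelope genes whose similar copies can share reads, and Wfdc12 came 24th at 0.638. Wfdc12 was closest to Gsdmc (0.328), Saa3 (0.508) and the gap junction gene Gjb6 (0.518). Spink12 was closest to Tmprss11b (0.311), Ass1 (0.323) and E2f7 (0.362). Wfdc21 was closest to the connexin gene Gjc3 (0.156), the potassium channel gene Kcna6 (0.162) and the claudin gene Cldn19 (0.166), and Spink6 had nothing closer than Lmbrd2 (0.319).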

How the data were processed

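Gene FPKM values of 12 skin libraries were taken unchanged from the deposited table. The submitters' processing notes name mm10 and featureCounts, and the sources used here do not give the aligner, annotation release, strand setting or FPKM tool. A further 3 samples, of dorsal root ganglion, were not analysed here. FPKM times gene length gave whole reads for 100% of values (tolerance 0.01), with implied denominators of 0.917 to 1.11 times the recovered totals.

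Genes with FPKM of at least 0.5 in at least 3 libraries (17646 of 54532) were fitted with limma on log2(FPKM + 0.5), eBayes with a mean trend, 4 groups together, 8 residual degrees of freedom; tests were two-sided, adjusted by Benjamini-Hochberg within each of 5 contrasts, at a threshold of 0.05. Ratios used exact permutation of treatment within genotype. Members and lists were chosen with earlier results of these data known. All 7 members, Klk5, Klk7, Klk14, Elane, Ctsg and F2rl1 were named. List genes were ranked by lowest adjusted p among those passing, up to 4 per list and contrast, and only some of these are named. Genomic neighbours, Spink14, Wfdc17 and Wfdc18 among them, were named by position, and marker genes that carried a sum or went against it after their values were seen. Replicate numbers did not pair samples (correlations of -0.13 to 0.141). The procedure was tested on simulated data in which few genes changed and all genes shared 1 fixed spread between replicates. That setting differs from these data, so error rates here were not tested. Replicates differed beyond read sampling (chi-square divided by its degrees of freedom, 6.72 to 63.3). Alternatives were other pseudocounts, filters and scalings, robust moderation, library weights, limma voom on recovered reads with TMM factors, a replicate block, leaving out each library, a 2-fold threshold and fitting only the groups compared. Versions were R 4.3.3, limma 3.58.1, Python 3.11.15, scipy 1.17.1, numpy 2.4.6, matplotlib 3.10.9 and pandas 2.3.3.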

Additional observations from a re-analysis of the deposited data

Results flagged for a closer look

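The MC903 response differed between genotypes, by limma's test of the difference itself, for the following inhibitors, neighbours and listed genes described above. Krt10, Mir7678 and genes named only for a similar profile are not included. Differences are log2 values, knockout-labelled minus wild type. Of the inhibitors, the response was smaller in knockout-labelled skin for Wfdc12 (-3.35), Slpi (-2.11), Wfdc5 (-1.86) and Spink5 (-1.51), and Wfdc21 fell less (0.63). Of other genes of both families, Spink14 differed by -2.62, Wfdc17 by 2.21 and Reck by 1.98. Of the proteases, Klk6 differed by -3.72, Klk8 by -2.59, Klk5 by -2.55, Klk13 by -2.37, Klk7 by -1.72, St14 by -1.60, Klk14 by -0.97, Mcpt4 by 1.23 and Ctsg by 1.77. F2rl1 differed by -1.41, Cdsn by -2.20 and Lor by -3.67. Of the cell type markers, Krt14 differed by -2.18, Krt5 by -2.13, Krt15 by -1.84, Col17a1 by -1.44, Scd1 by 1.82, Ngp by 1.89, Csf3r by 1.26 and Cxcr2 by 1.06. The Klk14 difference missed the threshold under 5 of its 22 alternatives, among them limma voom on recovered reads (limma adjusted p = 0.15). Dixon's test for a single outlying value was not run on the groups of 3 libraries.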

How the results depend on the processing

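The number of inhibitors passing stayed at 6 under MC903 in each genotype in all 24 alternatives. In untreated skin it was 3 and became 1 when only the groups compared were fitted, with a range of 1 to 3 on leaving out 1 library. In MC903 skin it was 3 between genotypes, became 5 with only the groups compared and 2 with the 2-fold threshold, and ranged from 3 to 5 on leaving out 1 library. For the difference of response it was 5, became 4 with the 2-fold threshold and stayed at 5 on leaving out 1 library. The 2-fold threshold moved the counts over all genes to 2283 of 8457 for MC903 in knockout-labelled skin, 4200 of 11109 in wild type, 441 of 2064 for genotype in untreated, 2489 of 9187 for genotype in MC903 skin and 2831 of 7008 for the difference of response. In untreated skin library weights gave 6548 genes, fitting only the groups compared 613, and leaving out 1 library 714 to 3561. With replicate number as a block, which nothing in the labels ties to a shared source, the inhibitor counts were 6, 6, 3, 3 and 5, and all genes passing in untreated skin 2124.

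Of the results that changed direction, the Spink5 to Klk14 ratio had passed (0.96, exact permutation adjusted p = 0.005) and was -0.28 with a pseudocount of 0.1. The others had not passed, and no cause was tested. Leaving out 1 library gave Spink6 ranges of -0.32 to 0.68 for MC903 in knockout-labelled and -0.37 to 0.036 in wild type skin, -0.71 to 0.29 and -0.085 to 0.50 for genotype in untreated and MC903 skin, and -0.17 to 0.84 for the difference. Wfdc21 in untreated skin was 0.013 with TPM scaling and -0.11 to 0.073 on leaving out 1 library. Spink12 between genotypes in MC903 skin was 0.064 with TPM scaling and -0.48 to 0.089 on leaving out 1 library, and its difference of response was -0.015 with a pseudocount of 1 and -0.18 to 0.38 on leaving out 1 library. Ctsg under MC903 in knockout-labelled skin was -0.038 with TPM scaling and -0.011 to 0.27 on leaving out 1 library, and in untreated skin -0.14 to 0.41. Klk14 in untreated skin was -0.00091 to 0.16. TPM scaling moved the median of all genes by -0.16 for MC903 in knockout-labelled and -0.38 in wild type skin, and by 0.23 for genotype in MC903 skin, so that 33.6%, 26.7% and 73.5% of passing genes were higher, against 52.1%, 51.8% and 49.8% as deposited. For the difference of response it moved the median by 0.23, with 71.7% against 50.3% higher. Scaling by total reads gave 40.0% and 61.9% for MC903 in wild type skin and for the difference, and 49.7% against 61.1% for genotype in untreated skin. No inhibitor that passed changed direction under either scaling. Depth limited Spink6 and untreated Wfdc12.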
